A study of Mus musculus with 4 samples.

Results

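The leptin receptor gene Lepr, its neighbour Leprot and the related gene Leprotl1 were followed across 4 mouse liver arrays. They are 3 of 23462 gene symbols that the array's probes could be matched to. Probes were taken where their transcript accession belongs to one of the 3 genes, which gave 7 probes: 4 for Lepr, 2 for Leprot and 1 for Leprotl1. The genes were selected on the Lepr signal itself, after a large difference between these arrays had been seen in it, so the values of Lepr below are a description and support nothing further.

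Each array held liver RNA of fasted male mice from 1 group, and no group had a replicate. The groups were aging diabetic mice given astragalus polysaccharide (APS) together with metformin, aging diabetic mice given metformin alone, untreated aging diabetic mice, and natural aging mice without diabetes or drug. Metformin is a biguanide that lowers blood glucose, and APS is a mixture of plant polysaccharides extracted from astragalus. The labels used here give no strain, dose or way of inducing diabetes, do not say what the 60 days in the titles count, and do not say whether an RNA came from a single mouse or a pool. All differences are therefore between 2 arrays, and no test across animals was possible.

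Leptin is a hormone of fat tissue that reports energy stores, and its receptor is a cytokine receptor that signals through the kinase JAK2 and the transcription factor STAT3. Lepr is spliced into a long form with the full signalling tail, short forms with a truncated tail, and a soluble form that circulates and binds leptin; liver is known as a source of the soluble form. Leprot (also called endospanin 1) and Leprotl1 (endospanin 2) encode small membrane proteins of endosomes that lower the amount of leptin receptor and growth hormone receptor at the cell surface.

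Lepr and Leprot lie next to each other on mouse chromosome 4 and are read from the same strand, while Leprotl1 lies on chromosome 8. Not tested against the array values, the 250 bases before each listed start are shown as background. They come from RefSeq on build GRCm38.p6, which covered 2 of the 3 genes with 3 windows, and the Leprot start lies 69624 bases before the first Lepr start. Capitals mark matches to GGGCGG (GC box) on either strand.
Leprot, chr4:101647533-101647782, + strand: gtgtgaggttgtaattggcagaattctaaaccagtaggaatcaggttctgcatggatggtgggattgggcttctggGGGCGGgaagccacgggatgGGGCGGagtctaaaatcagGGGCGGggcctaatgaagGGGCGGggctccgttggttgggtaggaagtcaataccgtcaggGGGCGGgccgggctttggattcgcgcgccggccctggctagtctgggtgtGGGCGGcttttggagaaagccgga
Lepr, first start, chr4:101717157-101717406, + strand: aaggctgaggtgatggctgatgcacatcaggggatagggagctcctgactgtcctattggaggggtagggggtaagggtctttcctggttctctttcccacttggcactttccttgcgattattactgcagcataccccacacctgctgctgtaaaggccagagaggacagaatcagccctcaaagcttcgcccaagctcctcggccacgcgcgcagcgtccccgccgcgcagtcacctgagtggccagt
Lepr, second start, chr4:101717656-101717905, + strand: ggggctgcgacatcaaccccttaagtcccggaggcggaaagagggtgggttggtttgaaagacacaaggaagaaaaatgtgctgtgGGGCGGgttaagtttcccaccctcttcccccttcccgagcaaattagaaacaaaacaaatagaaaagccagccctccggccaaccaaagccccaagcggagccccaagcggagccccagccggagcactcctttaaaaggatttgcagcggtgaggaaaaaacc

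The Leprot window held 6 GC boxes, a number that 0.886% of 32851 RefSeq windows of this length reach, while 32.7% hold at least 1. The windows before the first and the second Lepr start held 0 and 1. CCAAT matched at 2 places in the Leprot window and at 1 place before the first Lepr start; 33.8% of all windows hold it. None of the 3 windows held the letters TATAAA (12.4% of all windows), TGACGTCA (1.55%) or the STAT-type motif TTCNNNGAA (7.02%), searched on both strands. No match overlapped a match to another of these motifs.

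Signals are given as the deposited intensity and as log2 of that intensity relative to the 75th percentile of its array, so that 0 marks that percentile. That percentile lay between 2699.5 and 3589, and 33668 to 37402 of 59305 spots were well above background on an array. Neither slide nor scan separates the groups, since the 4 arrays share 1 of each. The error given with a difference combines the errors that the image analysis assigned to both spots and covers measurement only, not animals. The liver label was borne out by 7 of 7 usable hepatocyte markers, which were well above background on every array.

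Lepr stood highest in untreated aging diabetic liver and lowest in the liver of metformin-treated mice. Fewer cells of a type and less RNA per cell cannot be told apart in such whole-tissue samples. The probe A_55_P2177911 stood for the gene, by the rule of the highest mean among probes with usable spots on all arrays. It names transcript NM_010704. Its intensity was 2987 with APS plus metformin, 363 with metformin, 6343 in aging diabetic liver and 1908 in natural aging liver. On the scaled log2 axis these were -0.19, -3.31, 1.05 and -0.50. The metformin array was far below the other 3, and the APS plus metformin array lay close to natural aging. All 4 spots were well above background, with local backgrounds between 30 and 34.5.

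The second probe for the same transcript, A_55_P2177910, had intensities of 2344 with APS plus metformin, 375 with metformin, 4423 in aging diabetic and 778 in natural aging liver. The scaled levels were -0.54, -3.26, 0.53 and -1.80. The order of the arrays was the same as for the first probe: aging diabetic, APS plus metformin, natural aging, metformin. Natural aging lay lower on this probe, so its distance to the other arrays differed between these probes.

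The probe A_55_P2506350 names transcript NM_001122899. Its spot was marked non-uniform on 3 of 4 arrays, so it was left out of the gene's value. Its intensity was 19883 with APS plus metformin, where the spot was not marked, 2862 with metformin, 22902 in aging diabetic and 5408 in natural aging liver. These spots gave scaled levels of 2.55, -0.33, 2.90 and 1.0, again in the same order, with APS plus metformin close to aging diabetic.

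The fourth probe, A_66_P130517, names NM_146146, the RefSeq record of the long signalling form. Its intensity was 69.0 with APS plus metformin, 24.3 with metformin, 57.2 in aging diabetic and 24.5 in natural aging liver. It was not well above background on any of the 4 arrays, so no fold is given for it. The probes' own sequences were not used here, so it was not determined whether a probe also binds other Lepr transcripts than the one it names.

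**Figure D1:**
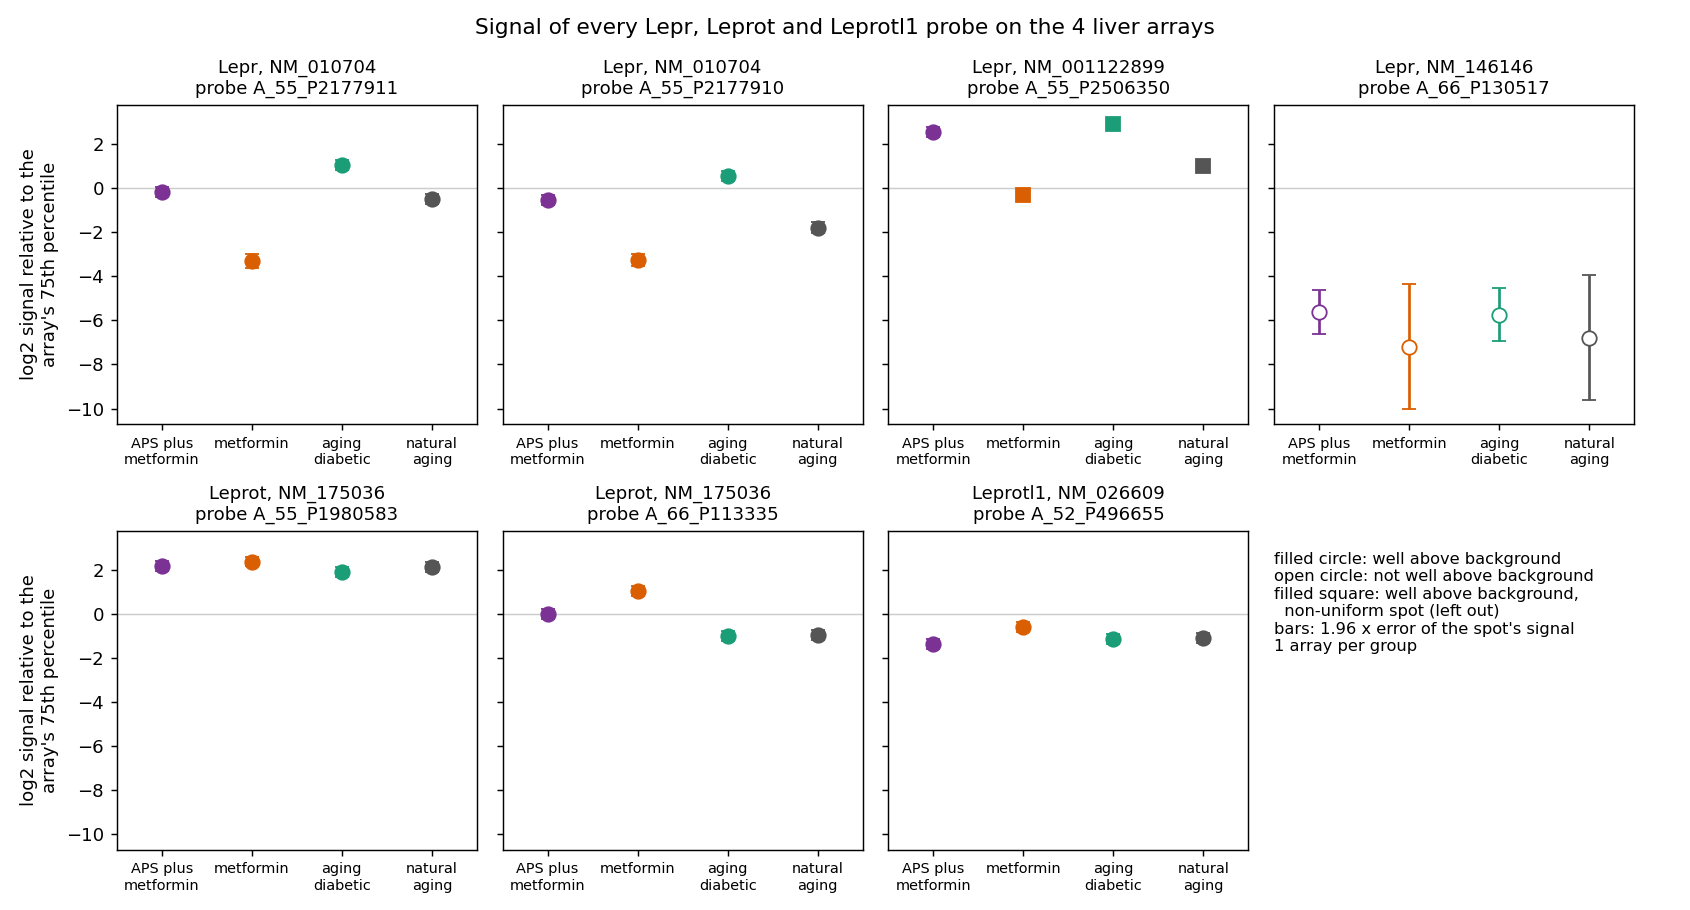
Scaled log2 signal (y axis, relative to the 75th percentile of the array) of each of the 7 probes on the 4 arrays (x axis), with bars of 1.96 times the error of the spot. The 3 Lepr probes well above background have their lowest point on the metformin array and their highest on the aging diabetic array, and the NM_146146 probe is not well above background on any array.

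In untreated diabetic liver, Lepr was higher than in natural aging liver on each of the 3 probes well above background. The probe that stands for the gene was 2.93-fold higher, a log2 difference of 1.55 with an error of 0.16. The second NM_010704 probe differed by 2.32 (error 0.17), and the non-uniform NM_001122899 spots differed by 1.90. Lepr was the only member past 2-fold here; 8.2% of 14453 genes were higher by that much and 6.09% lower, or 14.3% either way. Leprot differed by -0.20 and -0.02 on its 2 probes and Leprotl1 by -0.05, and the measurement interval of each included 0.

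Under metformin, Lepr was lower than in untreated diabetic liver by the widest margin of the 6 comparisons. The difference was -4.35 log2 with an error of 0.20, or 20.4-fold lower, and the second NM_010704 probe was 13.8-fold lower (-3.79, error 0.19). The non-uniform NM_001122899 spots were 9.36-fold lower, at -3.23. Of 15562 genes compared, 2 had a more negative value than Lepr, bounds included, against 3.53% that were at least 2-fold lower. Since Lepr was chosen for its differences between these arrays, its rank is a description.

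With APS plus metformin, Lepr was lower than in untreated diabetic liver by less. The differences were -1.24 (error 0.16) and -1.07 (error 0.16) on the NM_010704 probes, 2.36-fold and 2.10-fold lower. The NM_001122899 spots differed by -0.35, short of 2-fold. In this comparison 6.9% of 14734 genes were at least 2-fold lower and 674 had a more negative value than Lepr.

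Set directly against metformin alone, APS plus metformin had 8.67-fold higher Lepr (3.12, error 0.20). The second NM_010704 probe was 6.59-fold higher (2.72, error 0.19) and the NM_001122899 spots 7.32-fold higher (2.87). Of 15599 genes, 2.37% were at least 2-fold higher, and 12 had a larger value than Lepr. This comparison and the one before share the APS plus metformin array, and both treated arrays were also set against the same diabetic array, so their values are not independent.

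Against natural aging liver, metformin-treated liver had 6.98-fold lower Lepr (-2.80, error 0.20), with the other probes at -1.46 and -1.33; 4.71% of genes were at least 2-fold lower and 13% higher. With APS plus metformin the 3 probes did not place Lepr alike relative to natural aging. The probe that stands for the gene differed by 0.31, with a measurement interval of -0.01 to 0.63 that includes 0. The second NM_010704 probe was 2.39-fold higher (1.26) and the NM_001122899 spots 2.91-fold higher (1.54), where 6.14% of genes were at least 2-fold higher, 6.68% lower and 12.8% either way.

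**Figure D2:**
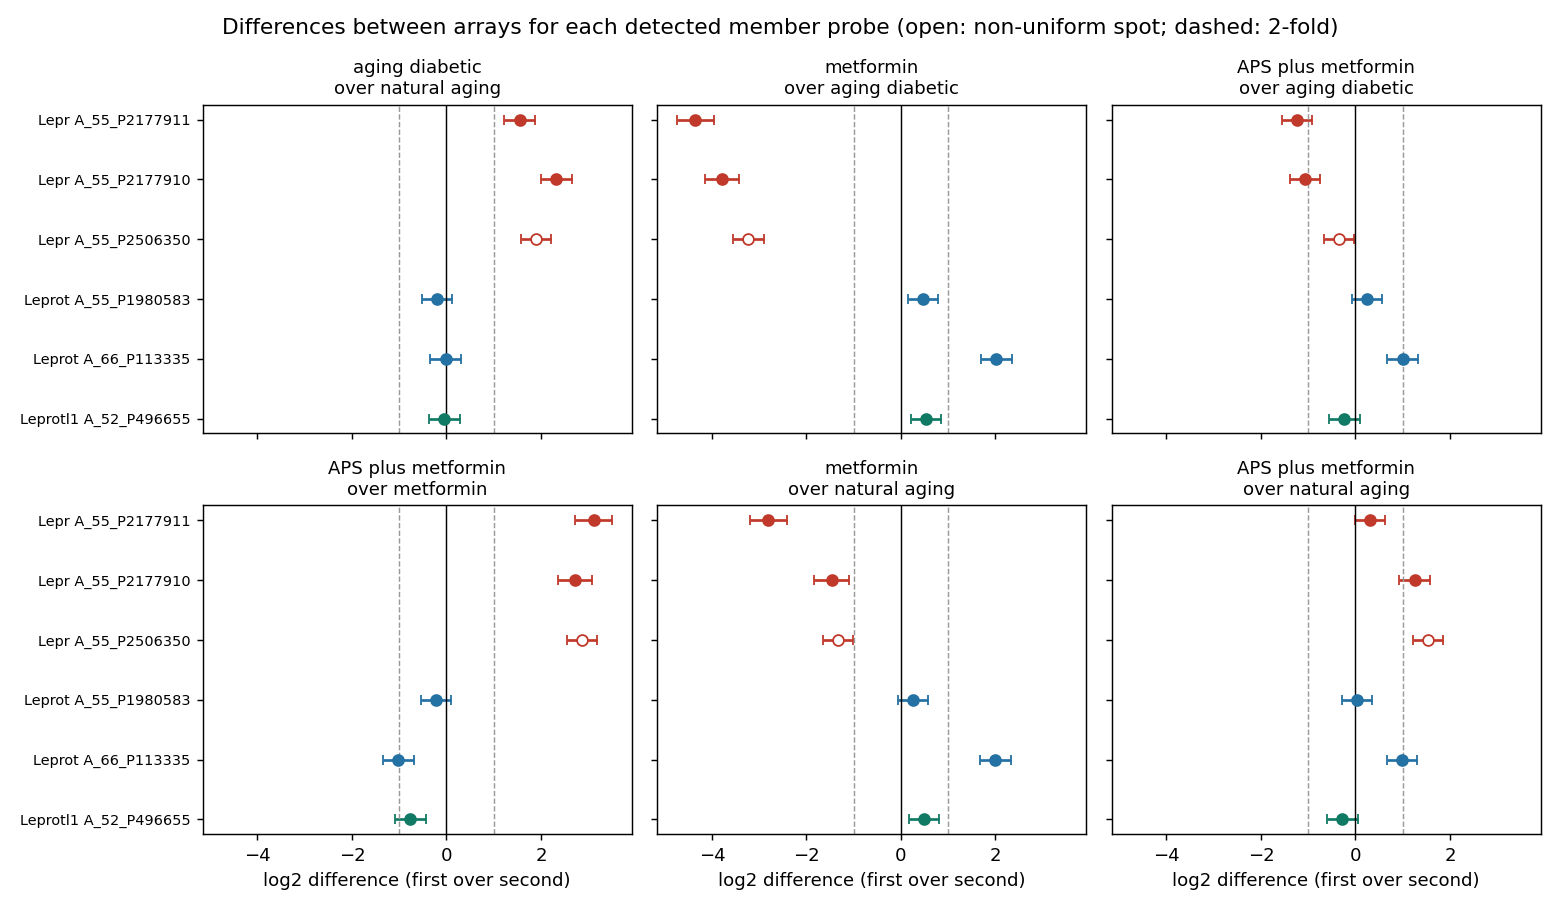
Log2 difference between 2 arrays (x axis, first-named over second) for the 6 probes well above background, with bars of 1.96 times the measurement error and dashed lines at 2-fold. The Lepr points lie between -4.35 and -3.23 for metformin over aging diabetic, and the Leprot probe that stands for its gene stays within 2-fold in all 6 panels.

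Over the 4 arrays the gene's range was 4.35 log2 for Lepr, 0.46 for Leprot and 0.77 for Leprotl1. The median range was 0.67 over the 12689 genes well above background on all 4 arrays, and 46 of those genes had a wider range than Lepr. By the probe that stands for the gene, no difference of Leprot or Leprotl1 passed 2-fold in either direction; the shares of genes that did lay between 11.3% and 17.7% in the 6 comparisons.

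**Figure D3:**
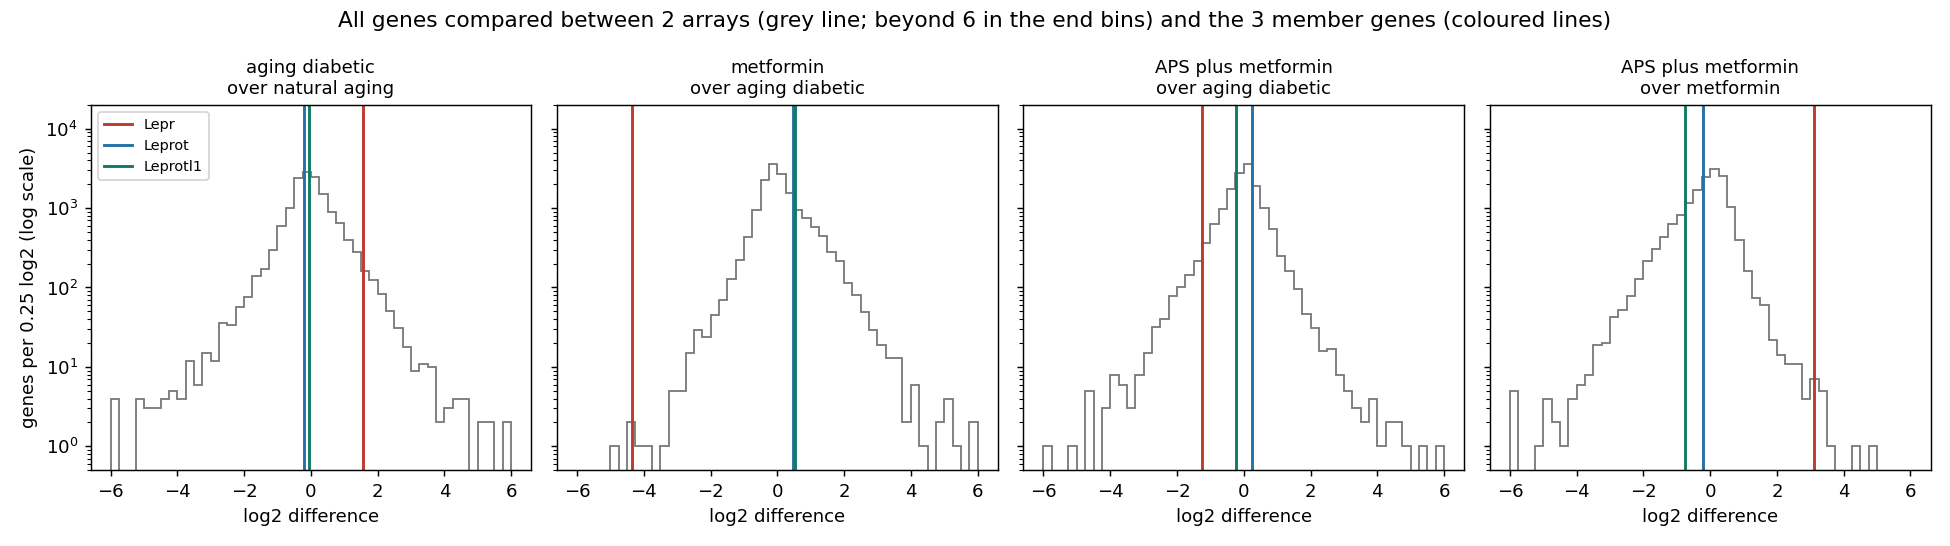
Number of genes (y axis, log scale) at each log2 difference (x axis) in 4 comparisons, with values beyond 6 in the end bins and coloured lines at the 3 genes. Lepr lies in the far left tail for metformin over aging diabetic (-4.35) and the far right tail for APS plus metformin over metformin (3.12). Leprot and Leprotl1, each by the probe that stands for the gene, lie within 1 log2 of 0. The other Leprot probe is not drawn.

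The Leprot probe that stands for the gene, A_55_P1980583, had intensities of 15222 with APS plus metformin, 18675 with metformin, 11598 in aging diabetic and 11760 in natural aging liver. The scaled levels were 2.16, 2.38, 1.92 and 2.12. Metformin was highest and aging diabetic lowest, and neighbours in that order differed by less than their measurement intervals. Metformin exceeded aging diabetic by 0.46 (interval 0.14 to 0.78), which is more than the measurement error and short of 2-fold.

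The other Leprot probe, A_66_P113335, names the same transcript, NM_175036, and differed more between arrays. Its intensities were 3442 with APS plus metformin, 7343 with metformin, 1550 in aging diabetic and 1380 in natural aging liver, or 0.02, 1.03, -0.99 and -0.97 on the scaled axis. Metformin was again highest, but here 4.05-fold above aging diabetic (2.02, error 0.16), where 11.9% of genes were at least 2-fold higher. APS plus metformin was 2.00-fold above aging diabetic (error 0.17 log2), where 4.38% of genes were at least 2-fold higher. It was 2.02-fold below metformin (-1.02, error 0.16), where 12.4% of genes were at least 2-fold lower. Metformin was 4.0-fold above natural aging (2.0, error 0.17), where 13% of genes were higher.

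Both Leprot probes were well above background on all 4 arrays and neither had a marked spot. Their differences for metformin over aging diabetic lay 1.56 log2 apart. Of 3736 genes with at least 2 usable probes well above background on both arrays of this comparison, 124 (3.32%) had probes farther apart, and the median gap was 0.30. The NM_010704 probes of Lepr lay 0.57 apart, with 26.0% of genes wider. Both Leprot probes were higher with metformin than in aging diabetic liver, and the size differed between them.

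**Figure D4:**
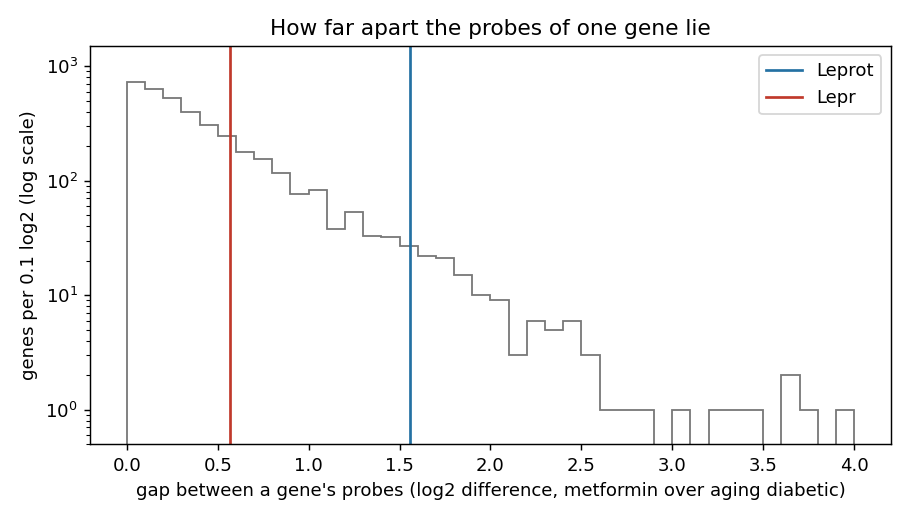
Number of genes (y axis, log scale) by the gap between the log2 differences of their probes (x axis) for metformin over aging diabetic, with lines at the 2 genes. The Leprot probes lie 1.56 log2 apart, with 3.32% of genes to their right, and the Lepr probes 0.57 apart.

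Leprotl1 had 1 probe, A_52_P496655 for NM_026609. Its intensity was 1328 with APS plus metformin, 2381 with metformin, 1406 in aging diabetic and 1276 in natural aging liver. The scaled levels were -1.36, -0.59, -1.13 and -1.08. Metformin stood above the other 3, which did not differ beyond their measurement intervals. The difference was 0.53 (error 0.17) for metformin over aging diabetic and -0.77 (error 0.17) for APS plus metformin over metformin, 1.45-fold higher and 1.70-fold lower.

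The rest of the leptin pathway was read from a list of 19 genes, of which 15 had a usable probe. Socs2, Grb2, Pik3r1 and Pik3ca had marked spots and were left out. For aging diabetic over natural aging, 4 of 15 were at least 2-fold lower and none was higher, with a median of -0.47 against -0.04 for all genes; 6.09% of all genes were lower and 8.2% higher. For metformin over aging diabetic, 2 of 15 were higher and none was lower (median 0.08 against 0.00), where 11.9% of all genes were higher and 3.53% lower, so the count is near that share. For APS plus metformin over aging diabetic, 1 of 15 was higher and none was lower, where 4.38% of all genes were higher and 6.9% lower (median 0.14 against 0.02). For APS plus metformin over metformin, none of 15 was higher and 1 was lower, where 2.37% of all genes were higher and 12.4% lower (median 0.15 against -0.03). For metformin over natural aging, 1 of 15 was higher and 5 were lower, where 13% of all genes were higher and 4.71% lower (median -0.48 against 0.00). For APS plus metformin over natural aging, none of 15 was higher and 4 were lower, where 6.14% of all genes were higher and 6.68% lower (median -0.19 against -0.03).

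The genes that passed 2-fold were mostly inhibitors of cytokine receptor signalling. Of these, Cish, Socs1 and Socs3 are known to be switched on by JAK and STAT activity. Cish, which encodes a suppressor of STAT5 signalling, had scaled levels of 0.02 with APS plus metformin, -0.65 with metformin, -2.07 in aging diabetic and 1.65 in natural aging liver. It was 13.2-fold lower in aging diabetic than in natural aging liver (-3.72). Against aging diabetic it was 4.26-fold higher with APS plus metformin (2.09) and 2.67-fold higher with metformin (1.42).

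Socs3, the feedback inhibitor that binds the leptin receptor complex, had levels of 0.27 with APS plus metformin, 0.78 with metformin, -0.30 in aging diabetic and 2.32 in natural aging liver. It was 6.13-fold lower in aging diabetic than in natural aging liver (-2.62) and 2.11-fold higher with metformin than in aging diabetic liver (1.07). Socs1, another inhibitor of JAK kinases, was 3.80-fold lower in aging diabetic than in natural aging liver (-1.92), and 2.14-fold lower with APS plus metformin than with metformin (-1.10). The phosphatase genes Ptpn1 and Ptpn2, whose products act on JAK kinases, differed by -0.83 and -0.90 between aging diabetic and natural aging liver, short of 2-fold. Against natural aging liver, Ptpn2 was 2.11-fold lower with metformin (-1.08) and Ptpn1 was 2.13-fold lower with APS plus metformin (-1.09). Ptpn1 with metformin (-0.70) and Ptpn2 with APS plus metformin (-0.62) stayed short of 2-fold. Each of these 5 inhibitors had its highest level in natural aging liver.

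The kinase, its adaptors and the STAT genes moved less. Irs2, an insulin receptor substrate that also takes part in leptin signalling, differed by -1.04 between aging diabetic and natural aging liver, 2.06-fold lower. Jak2, the receptor's kinase, differed by -0.83 there, by 0.17 for metformin over aging diabetic and by 0.64 for APS plus metformin over aging diabetic. Stat3, the main transcription factor of the pathway, differed by -0.47, -0.01 and 0.04 in the same 3 comparisons. Lep, which encodes leptin itself, was dim but well above background on all arrays, at -3.20 with APS plus metformin, -3.35 with metformin, -3.16 in aging diabetic and -3.10 in natural aging liver.

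Of 11 listed genes for related cytokine receptors, 10 could be compared. For aging diabetic over natural aging, 2 of 10 were at least 2-fold lower and none was higher: the oncostatin M receptor gene Osmr (-1.67) and Il6st, which encodes the shared subunit gp130 and was at least 4.97-fold lower. Of all genes 6.09% were lower and 8.2% higher there. For metformin over aging diabetic, 2 of 10 were higher and none was lower: the erythropoietin receptor gene Epor (1.97) and Osmr (1.33). Of all genes 11.9% were higher and 3.53% lower there. Ghr, the growth hormone receptor gene, differed by -0.77 and -0.16 in these comparisons. APS plus metformin over aging diabetic had 1 of 10 higher and none lower, where 4.38% of all genes were higher and 6.9% lower. Metformin over natural aging had 1 higher and 2 lower, where 13% of all genes were higher and 4.71% lower. APS plus metformin over natural aging had none higher and 2 lower, where 6.14% of all genes were higher and 6.68% lower. Over metformin, APS plus metformin had none past 2-fold, where 2.37% of all genes were higher and 12.4% lower.

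**Figure D5:**
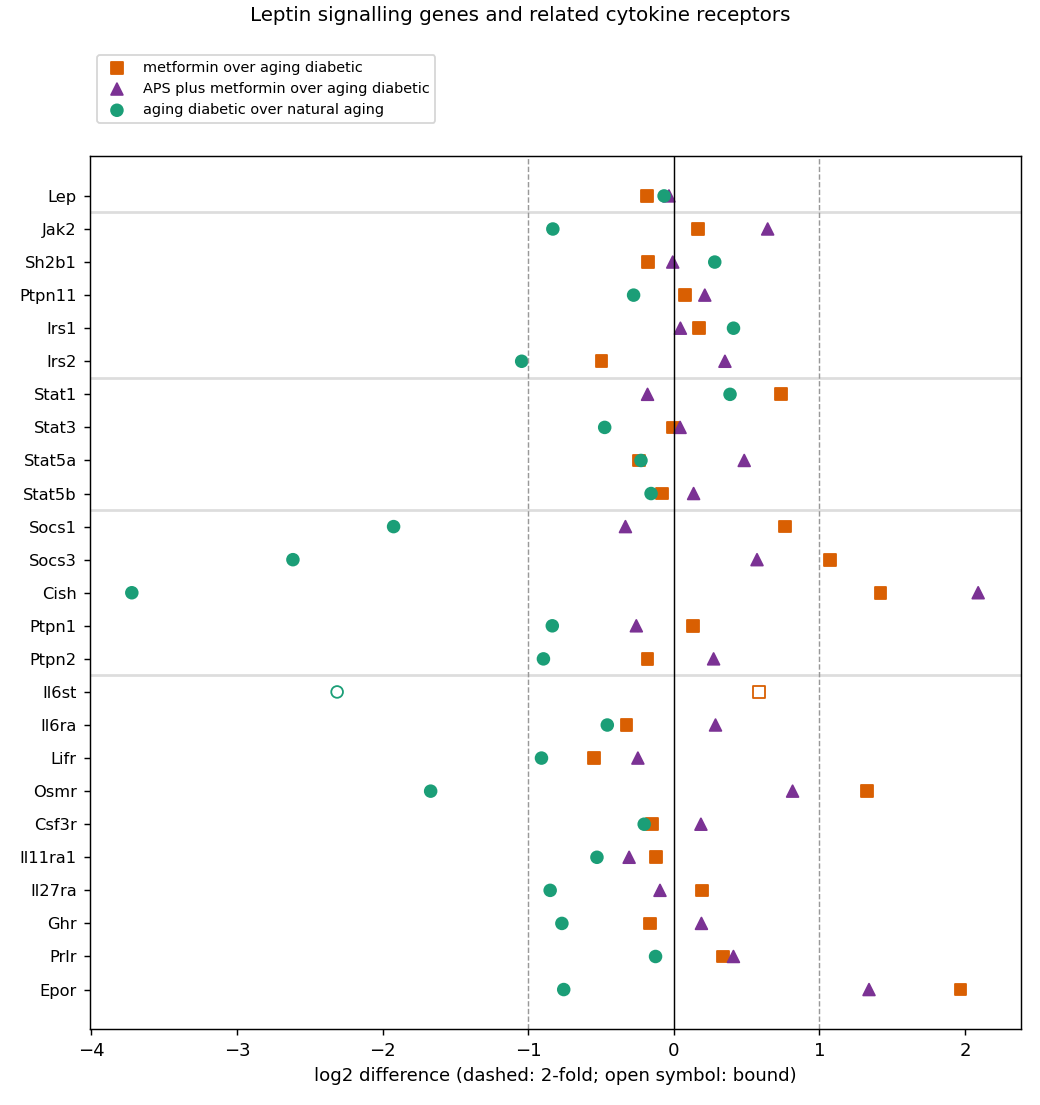
Log2 difference (x axis, dashed at 2-fold) of the usable leptin pathway genes and related receptors (rows) in 3 comparisons, with open symbols for bounds. Cish, Socs3 and Socs1 lie left of the dashed line for aging diabetic over natural aging (-3.72, -2.62 and -1.92), and no gene lies left of it for metformin over aging diabetic.

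Among genes for shedding and trafficking of the receptor, 4 of 6 had a usable probe. Adam10, a protease known to shed the leptin receptor, differed by -0.89 between aging diabetic and natural aging liver and by 0.55 for metformin over aging diabetic. Adam17, another sheddase, differed by -0.25 and 0.06. Bbs1, part of a complex for membrane traffic, was 3.72-fold higher in aging diabetic than in natural aging liver (1.90) and differed by -0.48 for metformin over aging diabetic.

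Of the 8 protein-coding genes nearest to Lepr, 4 on each side, 5 had a usable probe. On these, 2 were well above background on all arrays, Leprot and the adenylate kinase gene Ak4, while Dnajc6, Pramel17 and C130073F10Rik were not well above background on any array. Ak4 had levels of -0.93 with APS plus metformin, -1.86 with metformin, -0.78 in aging diabetic and -0.03 in natural aging liver. It was 2.11-fold lower with metformin than in aging diabetic liver (-1.08), and differed by -0.76 between aging diabetic and natural aging liver, where Lepr was higher.

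The gene with the pattern most like Lepr was E030018B13Rik. Likeness was the root mean square difference of levels centred on their mean over the 4 arrays, among 12688 other genes well above background on all of them. E030018B13Rik had a distance of 0.46 log2, with levels of -0.68 with APS plus metformin, -3.05 with metformin, 1.08 in aging diabetic and -1.41 in natural aging liver. Camk2b, a calmodulin-dependent kinase subunit gene, followed at 0.52, and Ibtk, Ctps2 and Atxn1 at 0.69 to 0.77. No other gene than E030018B13Rik lay within 0.5, whereas 10185 genes lay within that distance of Leprot, by the probe that stands for it. The other Leprot probe, with a range of 2.02 log2, was not ranked. With 4 points, such likeness is a description.

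Summed marker levels of several cell types differed between the arrays. The summed level of the 7 usable hepatocyte markers, relative to the 75th percentile, was 114 with APS plus metformin, 87.3 with metformin, 109 in aging diabetic and 134 in natural aging liver, and none of them passed 2-fold in any comparison. Beside the low Lepr on the metformin array, the 6 lymphocyte markers summed to 3.34 there, against 0.631 with APS plus metformin, 0.356 in aging diabetic and 1.19 in natural aging liver, with Cd79a not well above background on any array. All 5 lymphocyte markers that could be compared were at least 2-fold higher with metformin than in aging diabetic liver, Ms4a1 by a bound. In that comparison 11.9% of all genes were higher and 3.53% lower. The 6 usable stellate and fibroblast markers summed to 13.4 with APS plus metformin, 17.6 with metformin, 9.15 in aging diabetic and 16.9 in natural aging liver. Of the 5 that could be compared, 3 were at least 2-fold higher with metformin than in aging diabetic liver, with a median of 1.91: the receptor gene Pdgfrb (2.53) and the collagen genes Col3a1 (2.25) and Col1a1 (1.91). Reln was not well above background on any array. The 5 usable adipocyte markers summed to 3.07, 5.82, 5.04 and 4.87 in the same order of groups. Plin1 was not well above background on any array, and the other adipocyte markers did not move together. In that order of groups, Cidec had scaled levels of -0.18, 1.72, 1.73 and 1.45, and Cfd -4.17, -0.38, -2.67 and -3.05. Adipoq was instead highest with APS plus metformin, at 1.01, 0.71, 0.53 and 0.91, and Lep stayed between -3.35 and -3.10. The 6 acinar pancreas markers summed to 0.141 with APS plus metformin, 6.93 with metformin, 1.53 in aging diabetic and 39.4 in natural aging liver, and 5 of them were not well above background with APS plus metformin. Of the 6 acinar markers, 5 were also at least 2-fold higher with metformin than in aging diabetic liver. In the same comparison, 1 of 6 Kupffer and macrophage markers was at least 2-fold lower (Marco, -1.39) and none was higher. Among sinusoidal endothelial markers 1 of 7 was higher, among cholangiocyte markers 1 of 4 and among erythroid markers 1 of 3, with none lower. None of 4 neutrophil markers passed 2-fold. The part of these differences in the values of Lepr was not tested.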

How the data were processed

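The deposited array files hold spot intensity from Agilent Feature Extraction (version 11.5.1.1 per the file headers, 10.7 per the submitters' processing notes), in 1 channel (Cy5), together with an error of the signal. Per the file headers, other columns hold a 0 or a 1 that marks a spot as well above background or as non-uniform. The deposited series table holds log2 values that the authors normalized in GeneSpring, per the labels' protocols, by a method not given in the sources used here; columns have equal medians of 7.84. Log2 of the intensity was taken and the 75th percentile of each array subtracted (Python 3.11.15, numpy 2.4.6, pandas 2.3.3). Spots marked as outliers were left out, which kept 51780 of 56605 probes, and spots of a probe were averaged. Unversioned accessions were matched to RefSeq transcripts (GRCm38.p6), naming 33767 probes. The array headers name another build, so no gene coordinates are given apart from the promoter windows, which carry their own. The probe with the highest mean stood for a gene. A gene entered a comparison if its probe was well above background on 1 or both arrays, and was called at 2-fold; where the other was dim, the difference is a bound, set by the higher of its own signal and the lowest one that is well above background. With 1 array per group no test was run. The members and lists were chosen with earlier results of these data known. Named genes were the members, their lists, neighbours and the 10 nearest patterns. Alternatives used limma 3.58.1 in R 4.3.3; normexp used the median spot signal in place of the planned mean, which the files used here do not give.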

Additional observations from a re-analysis of the deposited data

How the results depend on the processing

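Each difference of the 3 genes was recomputed under 8 alternatives, and a value was taken as moved where it left 1.96 times the measurement error. Of 144 values 127 stayed within it, and none of the 5 Lepr differences past 2-fold changed sign; 38 of their 40 values stayed past 2-fold. With outlier spots kept, the NM_001122899 probe stood for Lepr, and the differences became 1.90 (aging diabetic over natural aging), -3.23 (metformin over aging diabetic), -0.35 (APS plus metformin over aging diabetic, no longer past 2-fold), -1.33 (metformin over natural aging) and 1.54 (APS plus metformin over natural aging, now past it). Normexp background correction gave Lepr -3.94 for metformin over aging diabetic and 2.65 for APS plus metformin over metformin. The mean over usable probes, which for Lepr includes the dim NM_146146 probe, gave Lepr -3.20 for metformin over aging diabetic, -0.73 for APS plus metformin over aging diabetic, 2.47 for APS plus metformin over metformin, -1.56 for metformin over natural aging and 0.91 for APS plus metformin over natural aging. For Leprot, in the same order of comparisons, that mean was 1.24, 0.62, -0.62, 1.13 and 0.51; both values over 1 are past 2-fold, unlike those of the probe that stands for the gene.

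Restricted to genes well above background on all 4 arrays, fewer genes were tested, and those past 2-fold numbered 1430 against 2400 for metformin over aging diabetic, 1359 against 2309 for APS plus metformin over metformin and 1766 against 2753 for metformin over natural aging. Scaling to the median put the share of higher among called genes at 63.9% against 77.1% for metformin over aging diabetic, 28.0% against 16.0% for APS plus metformin over metformin and 55.8% against 73.4% for metformin over natural aging, which was 83.5% with the percentile over spots well above background on all arrays. The median of all genes lay between -0.18 and 0.17 across scalings. No paired analysis was possible because each group has 1 array. Spot errors, not animals, set the precision given here, so whether the differences hold between mice is unknown.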

Other observations

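Genes that fasting is known to raise in liver were read beside Lepr, since all mice had been fasted. Of 15 listed genes, 14 had a usable probe. For metformin over aging diabetic, 1 of 14 was at least 2-fold higher, Pdk4, which restrains glucose oxidation (1.96), and none was lower, where 11.9% of all genes were higher and 3.53% lower. For APS plus metformin over aging diabetic, 2 of 14 were higher and none was lower: Ppargc1a, a coactivator of gluconeogenic genes (1.69), and Lpin1, a phosphatidate phosphatase (1.73). Of all genes 4.38% were higher and 6.9% lower there. For aging diabetic over natural aging, Cyp4a14, a fatty acid hydroxylase gene, was higher (4.75), while Pdk4 (-2.35) and Irs2 (-1.04) were lower, where 8.2% of all genes were higher and 6.09% lower.

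Of the 8 protein-coding neighbours of Leprotl1, all had a usable probe. Dusp4, a phosphatase gene for MAP kinases, was well above background in aging diabetic liver alone. It was at least 2.76-fold above natural aging liver there, and the other 5 of 6 neighbours compared stayed short of 2-fold. Of all genes 8.2% were higher and 6.09% lower. With metformin Dusp4 was at least 3.74-fold lower than in aging diabetic liver, and the other 6 of 7 stayed short of 2-fold. Of all genes 11.9% were higher and 3.53% lower. With APS plus metformin it was at least 3.46-fold lower than in aging diabetic liver, and the other 5 of 6 stayed short. Of all genes 4.38% were higher and 6.9% lower.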
